A study of Rattus norvegicus with 45 samples.

Results

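The genes described here serve dopamine synthesis, transport and signaling in the ventral tegmental area (VTA) of rats that self-administered (SA) heroin or saline. They are Th (ENSRNOG00000020410), Ddc (ENSRNOG00000004327), Slc18a2 (ENSRNOG00000008890), Slc6a3 (ENSRNOG00000017302), Drd2 (ENSRNOG00000008428) and Adcy5 (ENSRNOG00000002229). They were chosen by name for their known roles, without a threshold on any measured value. The choice was made with earlier results of these data known. They are 6 of the 32883 genes in the deposited table. All 6 were among the 22570 genes that passed the filter on low values.

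All animals were male, wild-type Sprague-Dawley rats whose age was not given in the sources used here. They had 10 d of heroin or saline SA, an intra-VTA injection of viral vector on day 11, and 30 d of abstinence before the tissue was taken. The vector was empty, expressed wild-type histone H3.3 (H3.3 WT), or expressed H3.3 with alanine in place of glutamine 5 (H3.3Q5A), a residue to which dopamine can be attached. Every vector carried GFP, and every rat, the saline controls included, therefore had catheter surgery, a brain injection and GFP. Punches were guided by GFP and hold infected and uninfected cells of all types near the injection. The 6 groups were saline empty (n = 7), saline H3.3 WT (n = 7), saline H3.3Q5A (n = 7), heroin empty (n = 8), heroin H3.3 WT (n = 7) and heroin H3.3Q5A (n = 8), with 1 library per rat and 44 rats in all. A further library, whose labels name both H3.3Q5A and H3.3 WT, was placed in no group.

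Dopamine neurons make dopamine from tyrosine. Tyrosine hydroxylase, encoded by Th, is the rate-limiting enzyme, and aromatic L-amino acid decarboxylase, encoded by Ddc, completes the synthesis. The vesicular monoamine transporter VMAT2 (Slc18a2) loads dopamine into vesicles, and also serves serotonin, noradrenaline and histamine neurons. The plasma membrane dopamine transporter DAT (Slc6a3) takes released dopamine back up and is among the most specific markers of these cells. The D2 receptor (Drd2) acts in dopamine neurons as an inhibitory autoreceptor and in other neurons as a receptor for released dopamine, and couples to Gi proteins that restrain adenylyl cyclase. Adcy5 encodes adenylyl cyclase 5, which makes cyclic AMP and is the main isoform in striatal neurons. Th, Ddc, Slc18a2, Slc6a3 and Drd2 are here called the 5 dopamine neuron genes.

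Ddc has 3 starts in the reference used and is described below without its sequences. The sequences before the starts of the other 4 dopamine neuron genes are shown. Each is the 250 bases before the start on GRCr8, from RefSeq, written 5′ to 3′ along the gene. Capitals mark matches on either strand to TGACGTCA (the cAMP response element), AAAGGTCA (the NR4A monomer element), TATAAA (the TATA box), GGGCGG (the GC box) or CCAAT. In Slc18a2, CCAAT and its reverse complement overlap.
Th, chr1:207508219-207508468, minus strand: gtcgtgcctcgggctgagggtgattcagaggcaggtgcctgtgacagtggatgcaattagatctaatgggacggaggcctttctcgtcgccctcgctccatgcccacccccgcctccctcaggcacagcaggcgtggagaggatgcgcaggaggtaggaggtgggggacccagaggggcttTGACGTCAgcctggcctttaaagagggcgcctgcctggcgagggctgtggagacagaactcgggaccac
Slc18a2, chr1:268399771-268400020, plus strand: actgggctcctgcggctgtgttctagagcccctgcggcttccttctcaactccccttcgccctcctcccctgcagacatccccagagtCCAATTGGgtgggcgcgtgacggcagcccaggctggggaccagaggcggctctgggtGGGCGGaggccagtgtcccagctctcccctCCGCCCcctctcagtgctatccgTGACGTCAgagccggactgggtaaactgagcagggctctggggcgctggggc
Slc6a3, chr1:31578963-31579212, minus strand: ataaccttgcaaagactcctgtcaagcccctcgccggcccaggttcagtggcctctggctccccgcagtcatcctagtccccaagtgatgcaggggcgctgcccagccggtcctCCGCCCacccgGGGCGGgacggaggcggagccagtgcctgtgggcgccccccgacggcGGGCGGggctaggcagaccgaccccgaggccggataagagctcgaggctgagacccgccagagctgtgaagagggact
Drd2, chr8:58605153-58605402, plus strand: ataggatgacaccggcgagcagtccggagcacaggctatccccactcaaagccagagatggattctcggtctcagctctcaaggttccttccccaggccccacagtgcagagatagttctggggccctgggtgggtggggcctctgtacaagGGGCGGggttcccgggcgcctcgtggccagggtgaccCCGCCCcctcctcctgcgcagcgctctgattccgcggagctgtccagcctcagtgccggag

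A full cAMP response element lay 69 bases before the start of Th and 52 bases before that of Slc18a2. It was found in the same window of 531 of the 33469 promoters in the reference table (1.59%). Slc6a3 held 3 GC boxes, and Slc18a2 and Drd2 each held 2, a motif present in 30.5% of all windows. The table gives 3 starts for Ddc, and the window before 1 of them held the NR4A element and a TATA box, which overlap, at 73 and 68 bases before the start. These motifs were present in 1.24% and 12.9% of all windows. Of the other Ddc windows, 1 held CCAAT at 89 bases before the start and the other held no match. Adcy5 (rn6 chr11:68695838-68842320, minus strand) had an r of -0.12 to -0.02 with the other genes over the 44 rats, and its window held 3 GC boxes and no other match. CCAAT was found in 34.0% of all windows. These matches describe letters in a window and were not tied to any measured binding.

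Libraries held 24308953 to 71104049 reads on genes. Levels are given as RPM (reads per 1000000 reads on genes), computed from whole reads that were recovered from the deposited values. They are comparable between rats for a gene and, without transcript lengths for these identifiers, not between genes. Differences are on the deposited log2-like scale, where 1 unit is close to a doubling at most of these levels. At the lowest values the scale is compressed, and 1 unit is more than a doubling. Slc6a3 in saline H3.3 WT rats 27 and 44 was 7.96 and 8.48 on this scale, at 3.74 and 6.42 RPM. The 5 dopamine neuron genes were low in 12 of the 44 rats. The widest gap in the ordered Th values lay between 11.31 and 12.22 and put 12 rats below and 32 above; the next widest gap was 0.72. The widest gaps in Ddc and in Slc6a3 put the same 12 rats below, whereas that in Slc18a2 put 7 of them below and that in Drd2 put 43 rats below and 1 above. Below the gap in Th were 2 of 7 saline empty, 2 of 7 saline H3.3 WT and 0 of 7 saline H3.3Q5A rats. After heroin these were 2 of 8 empty, 3 of 7 H3.3 WT and 3 of 8 H3.3Q5A rats. The library placed in no group also lay below the gap in Th, at 9.86, and is not in these counts. The 12 rats were kept in the comparisons between groups, because leaving them out would choose rats by the level of these genes. Values for the 32 rats alone, given below for correlations and for fits with Th as covariate, are subject to that choice.

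The synthesis enzymes varied over a wide range. Th ranged from 12.1 RPM in saline H3.3 WT rat 27 to 1362 RPM in saline H3.3 WT rat 8, a 113-fold range, with a median of 303 RPM. In saline empty rats Th was 28.8 RPM at the lowest, 259 at the median and 768 at the highest. In saline H3.3 WT rats these values were 12.1, 488 and 1362 RPM, and in saline H3.3Q5A rats 114, 297 and 537 RPM. All groups overlapped, and saline H3.3Q5A rats, with no rat below the gap, had the narrowest range. After heroin, Th was 38.1, 433 and 841 RPM in empty rats, 30.6, 306 and 485 RPM in H3.3 WT rats, and 37.4, 158 and 440 RPM in H3.3Q5A rats. Ddc ranged from 19.3 to 396 RPM, a 20.6-fold range. Its group medians were 117, 155 and 124 RPM in saline empty, H3.3 WT and H3.3Q5A rats and 192, 144 and 84.0 RPM in the matching heroin groups. The heroin H3.3Q5A group had the lowest median of both enzymes, and its range overlapped that of each other group.

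Of the transporters, Slc6a3 varied most. It ranged from 3.74 to 1930 RPM, a 516-fold range, and its spread within groups (SD 2.38 on the log2 scale) was the highest of all 22570 genes tested. In saline empty rats the lowest, median and highest values were 10.3, 466.2 and 1329 RPM, in saline H3.3 WT rats 3.74, 758 and 1930 RPM, and in saline H3.3Q5A rats 192, 492 and 985 RPM. After heroin they were 16.3, 830 and 1328 RPM in empty rats, 12.97, 660 and 1015 RPM in H3.3 WT rats, and 63.9, 251 and 715 RPM in H3.3Q5A rats. Slc6a3 was lowest in the 2 saline H3.3 WT rats that were also lowest in Th. Slc18a2 had a narrower range, from 18.8 to 515 RPM (27.4-fold). Its group medians were 165, 227 and 161 RPM in saline empty, H3.3 WT and H3.3Q5A rats and 252, 180 and 122 RPM in the heroin groups in the same order. The lowest heroin H3.3Q5A rat, at 66.6 RPM, lay well above the lowest heroin H3.3 WT rat, at 18.8 RPM, and the lowest heroin empty rat, at 28.2 RPM.

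The receptor Drd2 ranged from 17.0 to 182 RPM (10.7-fold). Its group medians were 53.7, 82.2 and 53.8 RPM in saline empty, H3.3 WT and H3.3Q5A rats and 74.4, 59.5 and 38.8 RPM in heroin empty, H3.3 WT and H3.3Q5A rats. Adcy5 was steady, from 150 to 221 RPM over all 44 rats (1.47-fold), with group medians of 164 to 187 RPM. The median SD within groups over all tested genes was 0.14 on the log2 scale. It was 0.12 for Adcy5, 0.82 for Drd2, 1.26 for Ddc, 1.26 for Slc18a2 and 1.74 for Th. Group membership accounted for 5.00% to 10.3% of the variance of the 5 dopamine neuron genes and for 19.3% of that of Adcy5. These shares are not adjusted for the number of groups. With 6 groups in 44 rats such a share is positive without any group effect, so it does not show one.

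**Figure D1:**
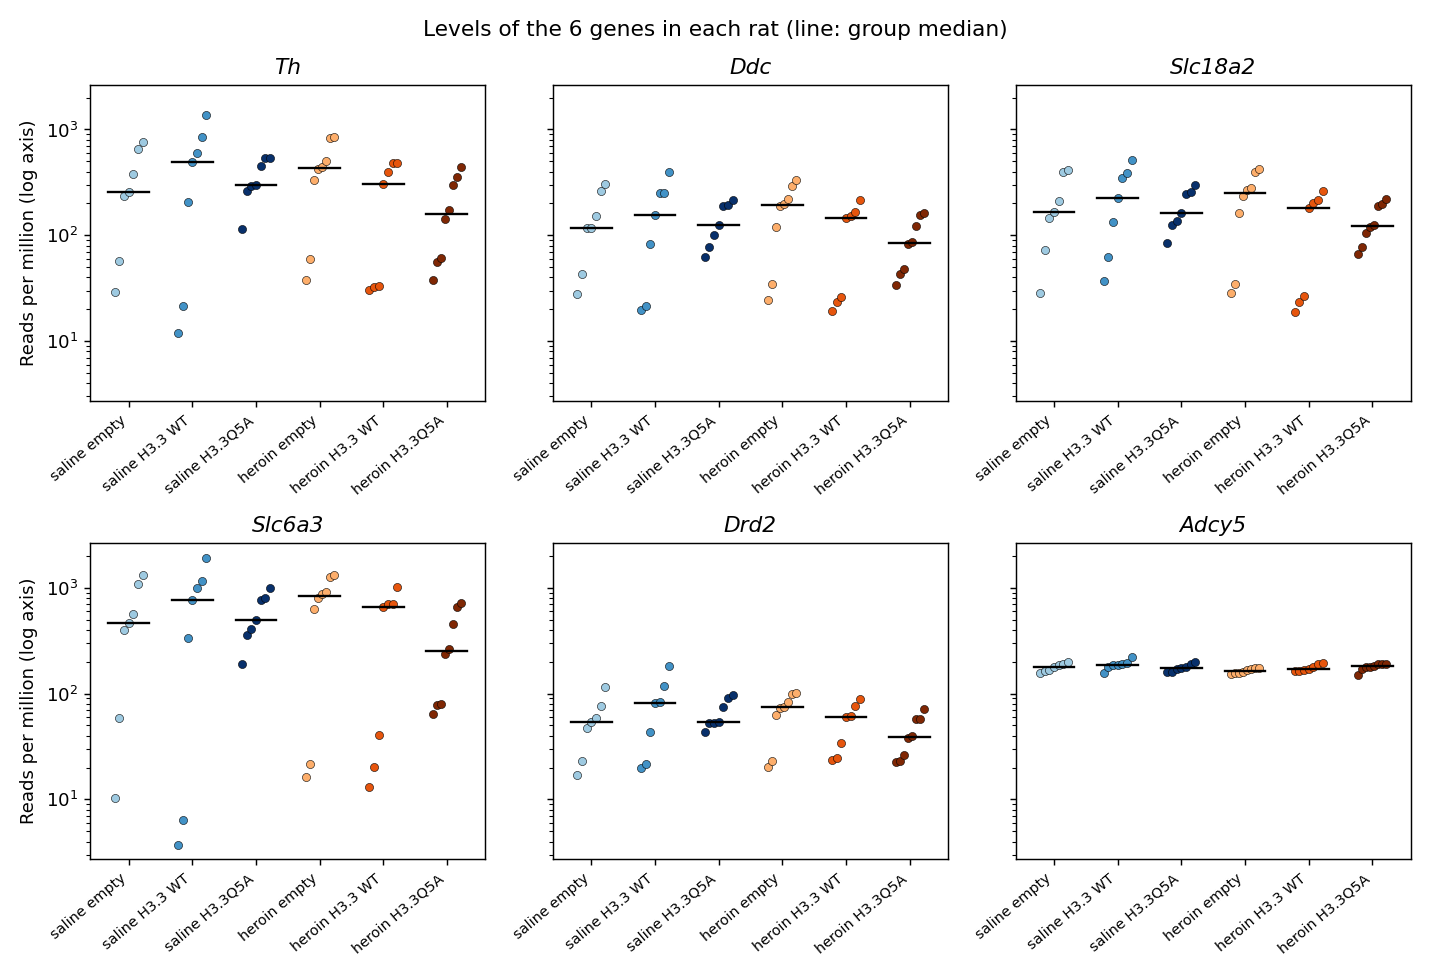
RPM (log axis) of each gene in each of the 44 rats by group, with a line at the group median. Th, Ddc, Slc18a2, Slc6a3 and Drd2 spread over 10.7-fold to 516-fold with 12 low rats in 5 of the 6 groups, while Adcy5 stays between 150 and 221.

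The low rats were low in each of the 5 dopamine neuron genes and not in Adcy5. In the 12 rats below the gap, Th was 12.1 to 61.6 RPM, against 114 to 1362 RPM in the 32 rats above it. Slc6a3 was 3.74 to 80.3 RPM below the gap and 192 to 1930 RPM above it. Drd2 was 17.0 to 34.4 RPM in the 12 rats and 37.8 to 182 RPM in the 32 rats, without overlap. On the log2 scale the highest of the 12 was 10.64 and the lowest of the 32 was 10.67. Drd2 was not used to draw the gap, but its r with Th within groups was 0.96, so its split is not independent of that in Th. Slc18a2 was 18.8 to 104 RPM in the 12 rats and 83.8 to 515 RPM in the 32 rats, and 11 of the 12 lay below all of the 32. Adcy5 was 158 to 221 RPM in the 12 rats and 150 to 201 RPM in the 32 rats. Th and Slc6a3 are defining markers of the tissue's dopamine neurons, and they were present in every library. Fewer dopamine neurons in a punch and less RNA per neuron cannot be told apart in these bulk samples, and the part of dissection in these values was not tested.

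The 5 dopamine neuron genes varied together within groups. After the group means were subtracted, Pearson's r over the 44 rats was 0.93 to 0.98 in their 10 pairs and Spearman's rho was 0.93 to 0.98. The permutation p was 1e-05 for each, the smallest that 100000 resamples can give, and 2e-05 after Benjamini-Hochberg adjustment over the 15 pairs of the 6 genes. Leaving out the 2 rats farthest from the median left r at 0.92 to 0.98. The closest pair was the synthesis enzymes Th and Ddc (r = 0.98). The loosest pair was Slc18a2 and Drd2 (r = 0.93). Over the 44 rats, Adcy5 gave r of -0.12 to -0.02 with the 5, with a lowest adjusted permutation p of 0.649. Within single groups of 7 or 8 rats, r among the 5 was 0.91 at the lowest.

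Since the rats fell on either side of a gap, the relations were also computed within each side. In the 32 rats above it, r among the 5 was 0.88 to 0.98 and rho 0.87 to 0.98, with an adjusted permutation p of 1e-05 for each of the 10 pairs. Without the 2 farthest rats r was 0.84 to 0.98. In the 12 rats below it, r was 0.14 to 0.86 and rho was 0.15 to 0.86. Without the 2 farthest rats r there was -0.31 to 0.77, so some pairs turned negative. The lowest adjusted permutation p there was 0.638, and only rats of the same group, at most 3, could be exchanged. The highest r among these 12 rats was that of Th and Slc18a2 (0.86) and the lowest that of Th and Drd2 (0.14). Adcy5 gave r of -0.32 to -0.13 with the 5 genes in the 32 rats (lowest adjusted permutation p 0.102). Its rho there was -0.43 with Ddc (adjusted permutation p = 0.0322) and -0.40 with Slc18a2 (adjusted permutation p = 0.0437), so that a negative rank relation passed in this subset and not over all 44 rats. Adcy5 gave r of -0.32 to 0.24 in the 12 rats, and of -0.35 to 0.78 there without the 2 farthest rats.

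The genes did not move in equal steps. Per unit of Th on the log2 scale, and with group in the model, Slc6a3 changed by 1.34 ± 0.04 (SE), Ddc by 0.71 ± 0.02, Slc18a2 by 0.69 ± 0.03 and Drd2 by 0.45 ± 0.02. Each of these slopes passed limma's test across 22569 genes, and the highest of the 4 adjusted p-values was 3.83e-21. The slope of Adcy5 was -0.0015 ± 0.011 (adjusted p = 0.952). Thus Slc6a3 spanned more of the log2 scale than Th, and Drd2 less.

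**Figure D2:**
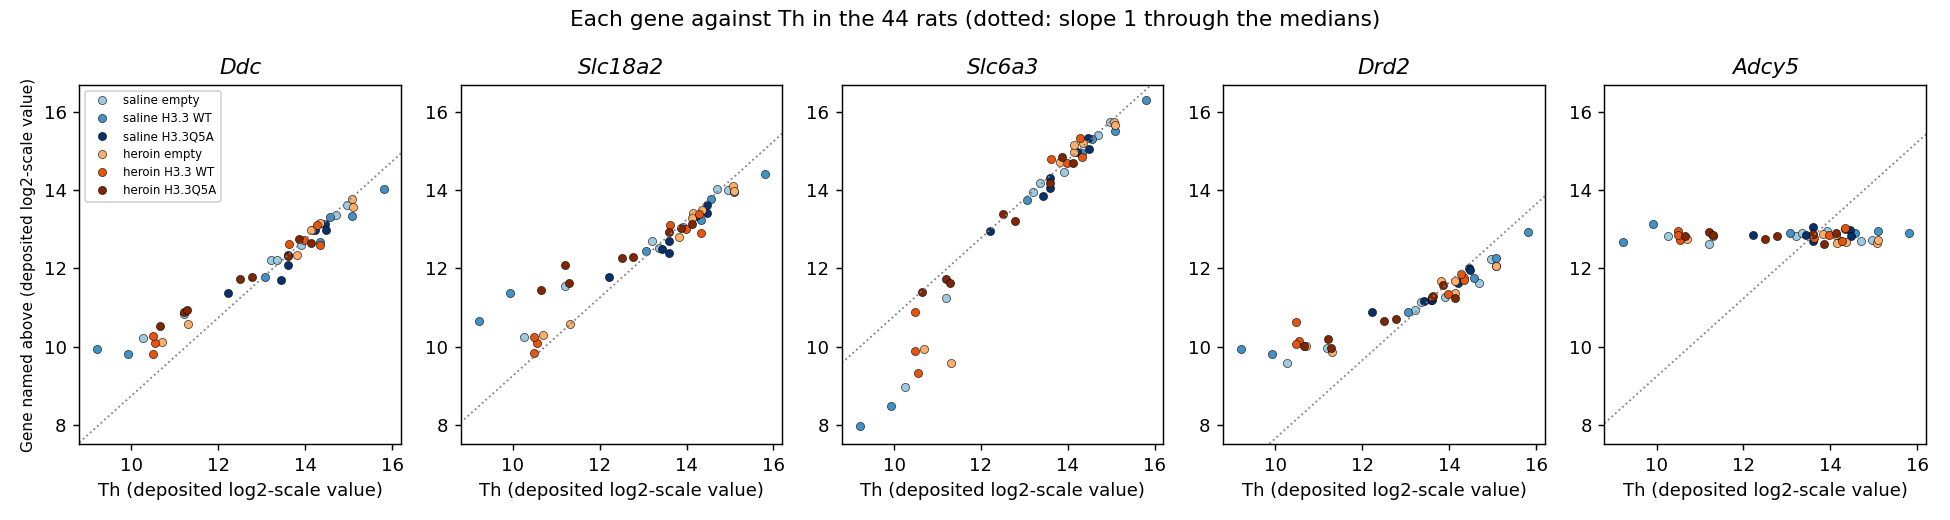
Deposited log2-scale values of 5 genes against those of Th in the 44 rats, coloured by group, with a dotted line of slope 1 through the medians. Slc6a3 is steeper than the line (slope 1.34), Ddc, Slc18a2 and Drd2 are flatter (0.71, 0.69 and 0.45), and Adcy5 is level.

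The question of the design for these genes was whether heroin SA and abstinence, or a vector that blocks dopamine attachment to H3, altered their expression. DEx genes were those with an adjusted p below 0.05 and a log2 fold change beyond 0.2. None of the 6 genes was a DEx gene in any of the 12 comparisons, and none of the 72 tests had an unadjusted p below 0.05 by limma's test. In each of the 9 pairwise comparisons the ranges of the groups overlapped for all 6 genes. For the 5 dopamine neuron genes the intervals were wide, and differences inside them were not detectable in this fit with this spread between rats. For Adcy5 they were narrow. The fit takes 1 spread per gene over all groups. The SD of Th was 0.79 in saline H3.3Q5A and 2.58 in saline H3.3 WT rats. Fitting only the groups compared moved limma's adjusted p of Drd2 in heroin vs. saline H3.3Q5A rats from 0.320 to 0.112. That of Th in heroin vs. saline H3.3 WT rats went from 0.790 to 0.842. A test with a separate spread for each group was not run.

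In heroin vs. saline empty rats, 0 of the 6 were called against 0.155% of all genes tested. Th differed by 0.49 ± 0.86 (SE; adjusted p = 0.819) and Slc6a3 by 0.45 ± 1.17. With H3.3 WT the share called was 2.75% of all genes and again 0 of 6. Th was 0.61 ± 0.89 lower in the estimate (log2 difference -0.61, adjusted p = 0.790), and Slc18a2 gave -1.03 ± 0.64 (95% confidence interval -2.32 to 0.25, adjusted p = 0.451). With H3.3Q5A, where 0.505% of all genes were called, the 6 differences were all negative, with none called. They were -1.21 ± 0.86 for Th, -1.23 ± 1.17 for Slc6a3, -0.73 ± 0.41 for Drd2 (adjusted p = 0.320) and -0.03 ± 0.06 for Adcy5. The median over the 6 genes was 0.31 in empty, -0.44 in H3.3 WT and -0.70 in H3.3Q5A rats, where the medians over all tested genes were -0.0071, 0.0013 and 0.010. Since the 5 genes vary as one, such a median rests on little more than a single gene.

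After heroin, H3.3Q5A was compared with both control vectors. Against heroin empty (3.21% of all genes called, 0 of 6), Th gave -1.07 ± 0.83, Ddc -0.74 ± 0.60, Slc18a2 -0.40 ± 0.60, Slc6a3 -0.75 ± 1.13 and Drd2 -0.60 ± 0.39 (adjusted p of 0.412 to 0.782). Adcy5 was 0.08 ± 0.06 higher in the estimate, with 7 of 8 heroin H3.3Q5A rats above the heroin empty mean (adjusted p = 0.511). Against heroin H3.3 WT (2.71% called, 0 of 6), Th differed by -0.03 ± 0.86 and Slc18a2 by 0.55 ± 0.62 (95% confidence interval -0.70 to 1.80). In heroin H3.3 WT vs. heroin empty rats no gene at all was called (0%; 1277 genes had an unadjusted p below 0.05), and the differences were -1.04 ± 0.86 for Th, -0.83 ± 0.62 for Ddc and -1.05 ± 1.17 for Slc6a3. These comparisons share the heroin groups, so their values are not independent of each other.

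After saline, the estimates for H3.3Q5A lay above empty for all 6 genes, with 4.94% of all genes called and 0 of 6. Th differed by 0.63 ± 0.89, Slc6a3 by 0.94 ± 1.21, Drd2 by 0.46 ± 0.42 and Adcy5 by 0.05 ± 0.06 (adjusted p of 0.534 to 0.712 for these 4). The 2 saline empty rats below the gap had no counterpart in the saline H3.3Q5A group. Against saline H3.3 WT (0.00886% called, 0 of 6), Slc6a3 differed by 1.18 ± 1.21 and Slc18a2 by -0.01 ± 0.64. In saline H3.3 WT vs. saline empty rats (0% called; 3788 genes had an unadjusted p below 0.05), Adcy5 gave the lowest p of all 72 tests. It was 0.12 ± 0.06 higher in the estimate (95% confidence interval -0.0022 to 0.25, adjusted p = 0.305), with 6 of 7 saline H3.3 WT rats above the saline empty mean. Over all 9 pairwise comparisons the Adcy5 differences were between -0.08 and 0.12, and no bound of a 95% interval went below -0.21 or above 0.25. For Th the bounds reached -2.95 and 2.42.

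Interactions asked whether the heroin difference changed with the vector. For H3.3Q5A against empty, 14% of all genes were called and 0 of 6. The estimates were -1.70 ± 1.22 for Th, -0.97 ± 0.88 for Ddc, -0.64 ± 0.87 for Slc18a2, -1.69 ± 1.66 for Slc6a3 and -1.07 ± 0.57 for Drd2, the autoreceptor gene (95% confidence interval -2.23 to 0.09, adjusted p = 0.217). Adcy5 gave 0.02 ± 0.08. For H3.3Q5A against H3.3 WT (7.93% called, 0 of 6) the estimates ran from -0.88 for Slc6a3 to 0.56 for Slc18a2. For H3.3 WT against empty (0% called; 1137 genes had an unadjusted p below 0.05) they ran from -1.20 for Slc18a2 to -0.03 for Adcy5.

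**Figure D3:**
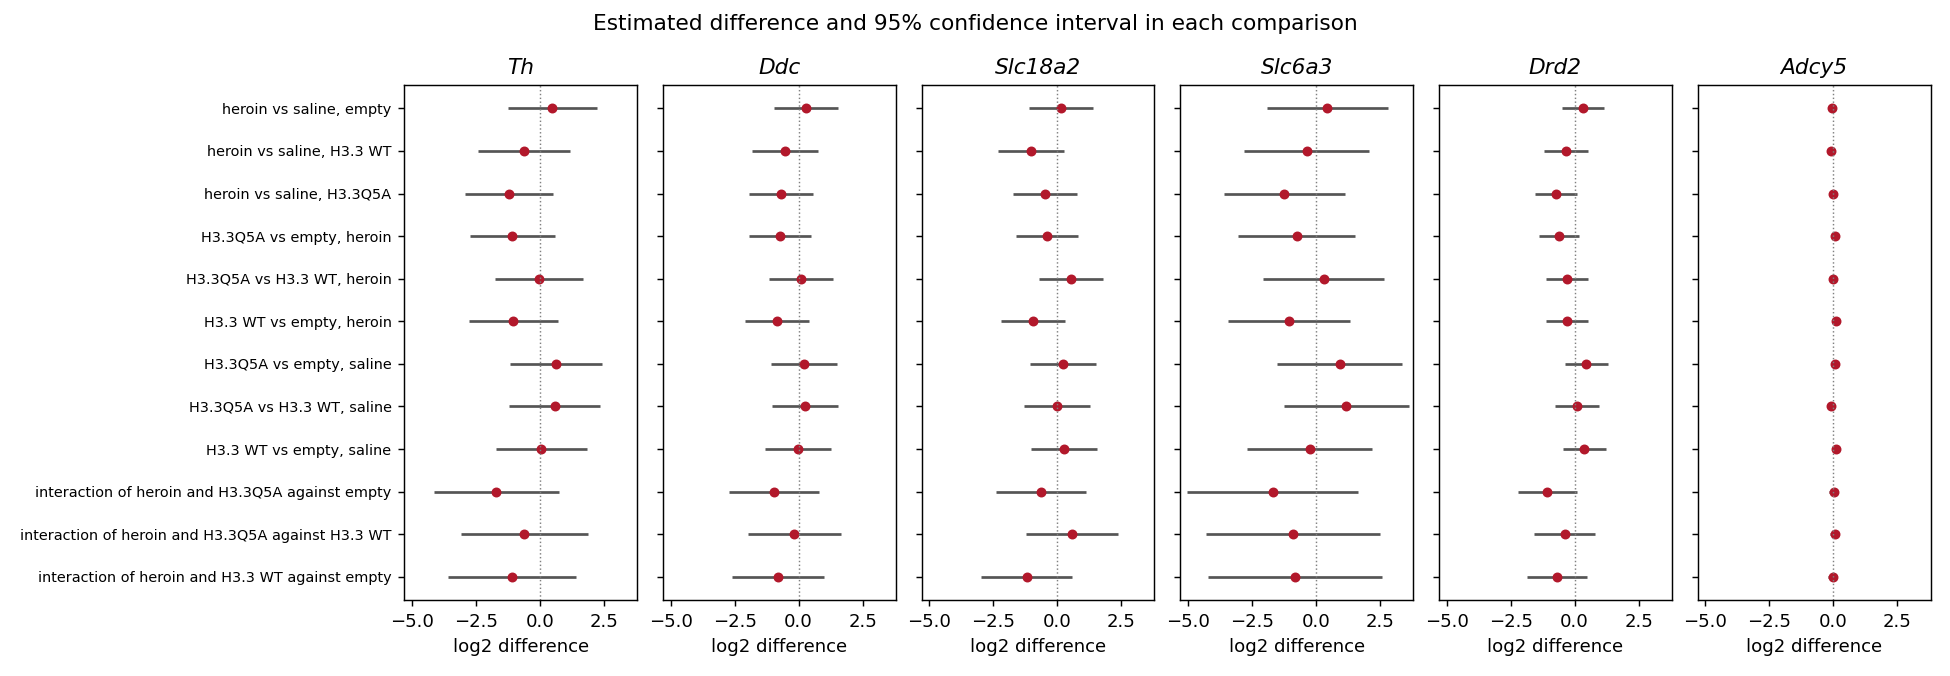
Estimated log2 difference (point) and 95% confidence interval (line) of each gene in the 9 pairwise comparisons and 3 interactions. Every interval includes 0; those of Slc6a3 are the widest, and those of Adcy5, within -0.21 and 0.25, are hidden behind the points.

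Drd2 was a DEx gene in 3 comparisons once factors estimated from the residuals, in the manner of the RUVr step named in the study's methods, were put in the model. With 3 factors it was called in heroin vs. saline H3.3Q5A rats (adjusted p = 0.0163, where 10.7% of all genes were called), in H3.3Q5A vs. empty rats after heroin (adjusted p = 0.0414, 10.6% called) and in the heroin-by-H3.3Q5A interaction against empty (adjusted p = 0.00795, 23.6% called). With 1 factor the interaction alone was called (adjusted p = 0.0230, 19% called). Over the 12 comparisons, 6.57% of all tests were called with 1 factor and 10% with 3. The estimates stayed at -0.73, -0.60 and -1.07. Residual factors are built to be uncorrelated with the groups and so alter only the error of the fit. The factors were estimated from the same values that were tested, so the adjusted p-values of limma's test with them can be too small. In the 8 heroin H3.3Q5A rats Drd2 was 22.8 RPM at the lowest, 38.8 at the median and 71.2 at the highest, and 7 of the 8 lay below the mean of saline H3.3Q5A rats and also below that of heroin empty rats. The first residual factor was itself tied to these genes: it held 21.97% of the residual variance of all genes, and its r over the 44 rats was 0.80 with Drd2, 0.71 with Ddc, 0.69 with Slc6a3, 0.67 with Th and 0.66 with Slc18a2 in absolute value, against 0.39 with Adcy5. A model with this factor therefore removes much of the spread that the 5 genes share.

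A comparison at equal Th was added after the values had been seen. With the Th value of each rat as a covariate, 2 of 60 tests on the other 5 genes were called, beside 2.76% of the tests of all genes over the same 12 comparisons. Both were for the vesicular transporter gene Slc18a2. In H3.3Q5A vs. H3.3 WT rats after heroin, Slc18a2 was 0.57 ± 0.17 (SE) higher at equal Th (adjusted p = 0.0494, with 3.8% of all genes called). The heroin-by-H3.3Q5A interaction against H3.3 WT was 0.98 ± 0.25 (adjusted p = 0.0102, 8.4% called). In heroin vs. saline H3.3 WT rats the difference of -0.61 ± 0.18 just missed the threshold (adjusted p = 0.0515). Slc6a3, the reuptake transporter gene, gave 0.69 ± 0.23 in H3.3Q5A vs. empty rats after heroin (adjusted p = 0.0772). Ddc did not reach an unadjusted p of 0.05 in any of the 12 comparisons and gave pairwise estimates of -0.22 to 0.18, with bounds of -0.46 and 0.42.

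Among the rats low in Th, the Slc18a2 values of the vector groups were apart. Slc18a2 minus Th on the log2 scale is read here only between rats, as its zero depends on the lengths of both transcripts. It also falls as Th rises, since the slope of Slc18a2 on Th was 0.69, so it does not compare rats at equal Th. It was 0.34, 0.79 and 0.88 in the 3 low heroin H3.3Q5A rats and -0.64, -0.46 and -0.25 in the 3 low heroin H3.3 WT rats. These triplets did not overlap, and the 2 low heroin empty rats, at -0.73 and -0.40, were on the side of the latter. In low saline rats the value was 1.44 and 1.44 with H3.3 WT and -0.01 and 0.34 with the empty vector. Th itself was lower in the former, at 9.22 and 9.93 on the log2 scale, than in the latter, at 10.26 and 11.20. As levels, Slc18a2 was 66.6 to 104 RPM in the low heroin H3.3Q5A rats and 18.8 to 26.7 RPM in the low heroin H3.3 WT rats, while Th was 37.4 to 61.6 and 30.6 to 33.6 RPM. In the 32 rats above the gap, a subset chosen by Th, the same fit gave 0.14 for H3.3Q5A vs. H3.3 WT after heroin (adjusted p = 0.957) and 0.23 for the interaction (adjusted p = 0.562). The pairwise call was also lost when any of 10 of its 15 rats was left out (highest adjusted p = 0.173). These were heroin H3.3 WT rats 11, 20, 38 and 51, and heroin H3.3Q5A rats 24, 25, 26, 37, 39 and 43. The interaction call was kept without each of its 29 rats. No saline H3.3Q5A rat lay below the gap (lowest Th 12.22), so at low Th that group is read only along the fitted slope. Leaving out 1 rat at a time cannot show how much the call rests on this. The fit shares its error and its slope on Th over all 44 rats. Without saline empty rat 42, which is in neither comparison, the calls of Slc18a2, Slc6a3, Drd2 and Adcy5 fell from 2 to 1.

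**Figure D4:**
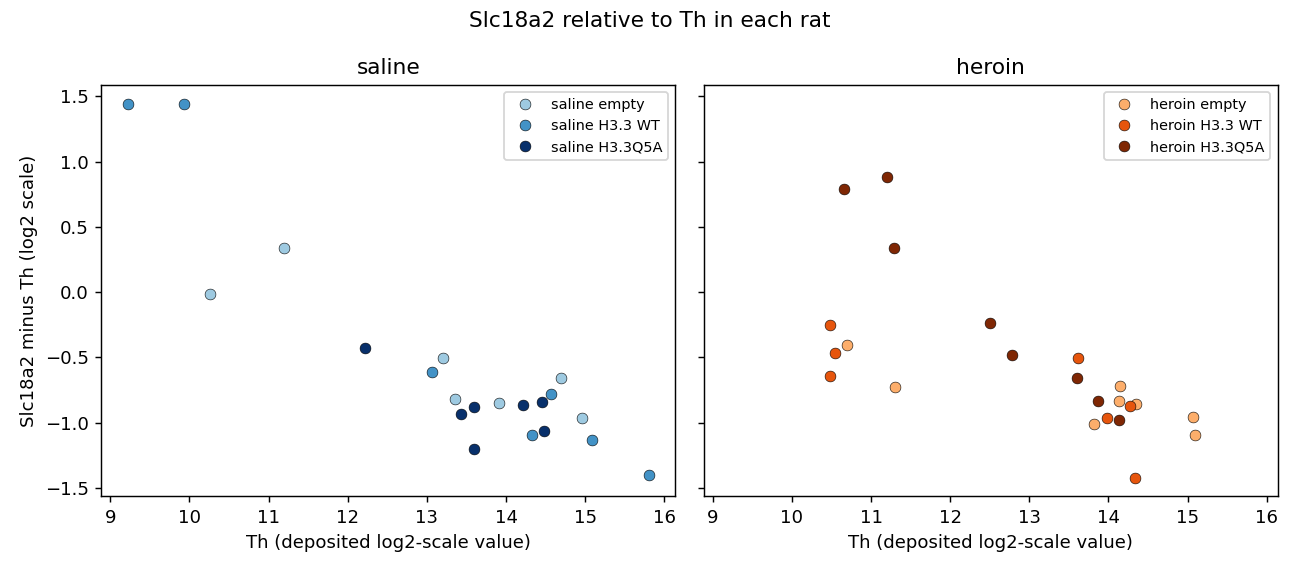
Slc18a2 minus Th (log2 scale) against Th in each rat, for saline (left) and heroin (right) rats, coloured by vector. The 3 heroin H3.3Q5A rats with Th below 11.5 lie at 0.34 to 0.88, and the 5 other heroin rats there lie at -0.73 to -0.25, while rats with higher Th overlap.

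Many other genes followed Th. Within groups, 2159 of 22569 genes (9.57%) had a slope on Th with an adjusted p below 0.05 by limma's test, 1047 of them positive and 1112 negative. The mean r with the 5 dopamine neuron genes over the 44 rats exceeded 0.9 in 27 of 22565 other genes, 0.8 in 88 and 0.7 in 168, and was below -0.7 in 33. The 5 genes themselves had mean r of 0.95 to 0.98 with the other 4. ENSRNOG00000012283 and ENSRNOG00000012448 came closest (mean r = 0.98 each), and the sources used here do not pair their identifiers with names. Among the 1997 genes that could be named, the closest were Rassf3 (mean r = 0.74), Lats2 (0.71) and Gde1 (0.71), and the most opposed were Vash2 (-0.73), AABR07037520.1 (-0.71), Hp1bp3 (-0.70) and Grm8 (-0.70). Rassf3 is a Ras association domain gene, Lats2 encodes a Hippo pathway kinase, and Grm8 encodes a metabotropic glutamate receptor. These are descriptions over rats that share the 12 low values.

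**Figure D5:**
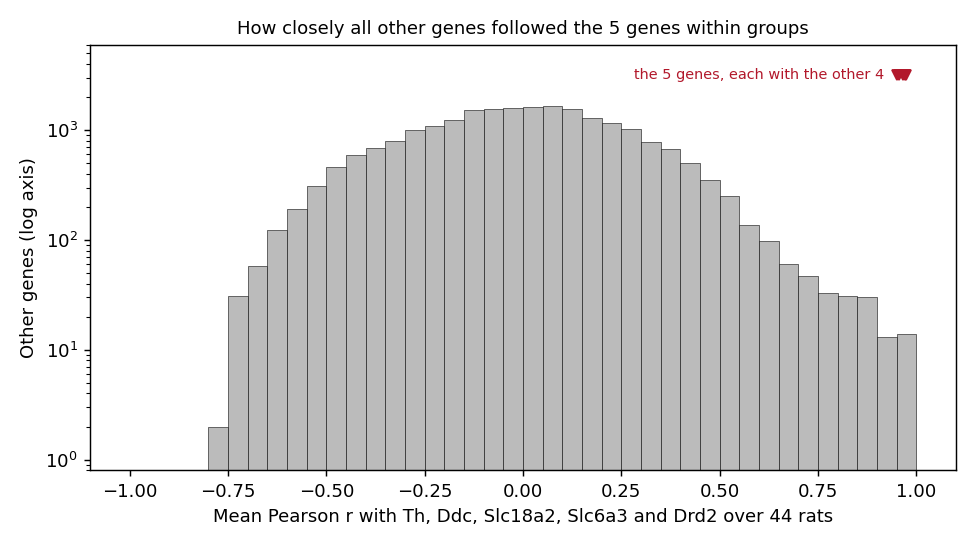
Number of other genes (log axis) by their mean Pearson r with the 5 dopamine neuron genes over 44 rats after subtraction of group means. Most of the 22565 genes lie near 0, with a thin tail of 27 genes above 0.9, where the 5 genes themselves lie (triangles at 0.95 to 0.98, each with the other 4).

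Adcy5 followed a different set of genes. Its r over the 44 rats was highest with ENSRNOG00000003812 (0.89), and among named genes with Sdc3 (0.88), which encodes a heparan sulfate proteoglycan, and Ccdc6 and Fam53c (0.87 each). The mean r of these 4 with the 5 dopamine neuron genes was -0.22 to 0.03. Adcy5 was instead aligned with the second residual axis (absolute r = 0.75, 10.4% of the residual variance).

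The pathway and cell type lists could be checked only in part, since few of their genes could be named. Of 29 genes of dopamine receptor and cyclic AMP signaling, 2 could be named, the protein phosphatase inhibitor gene Ppp1r1a and the protein kinase A regulatory subunit gene Prkar2b. Neither had a slope on Th that passed the test (slopes 0.02 and -0.02, adjusted p = 0.735 and 0.422). Between groups, Ppp1r1a was a DEx gene in 5 of the 12 comparisons and Prkar2b in 2. Both were called in the heroin-by-H3.3Q5A interaction against empty, where 14% of all genes were called. Their other calls fell in comparisons with 2.71% to 7.93% of all genes called. None of 11 genes of cofactor and amine metabolism and none of 18 further dopamine neuron markers could be named, and the same held for striatal, GABA, serotonin and noradrenaline, astrocyte, and ependyma and pituitary markers. Of the oligodendrocyte markers reported here, the myelin gene Mobp rose with Th (slope 0.09 ± 0.03, adjusted p = 0.0468). Mbp, Mag, Cldn11 and Opalin had slopes of 0.06 to 0.09 and did not pass. The vesicular glutamate transporter gene Slc17a8, 1 of 3 glutamate neuron markers, fell with Th (slope -0.10 ± 0.03, adjusted p = 0.0172). Of all genes, 9.57% had a slope on Th that passed. The microglial Cx3cr1 and the meningeal Col1a1 did not pass (adjusted p = 0.239 and 0.476). Each was the only marker named, of 5 for microglia and of 6 for meninges and vessels. Some of these cell type markers were also called between groups. Col1a1 was a DEx gene in 5 of the 12 comparisons, and Mobp, Mbp and Opalin in 3 each. Mag, Cldn11 and Cx3cr1 were DEx genes in 2 each, and Slc17a8 in 0. Each marker with a call had 1 in the heroin-by-H3.3Q5A interaction against empty, where 14% of all genes were called. The other calls fell in comparisons with 2.71% to 7.93% of all genes called, and the comparisons share groups. A slope of 0.09 is small beside that of Slc6a3, and the part of other cell types in the Th values was not tested.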

How the data were processed

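RNA-seq of VTA punches was analysed for 44 rats. Per the labels and the study's methods, polyA libraries without strand marking were made with 1 rat per library, aligned by the authors with HISAT2 2.1.0 to rn6 (Rnor_6.0) and counted with featureCounts 2.0.1, and DESeq2 2.11.40.6 was used. The authors deposited variance-stabilized counts on a log2 scale, with 5.73 for a count of 0. Inverting this transformation gave whole reads (within 0.05) for 100% of values, and RPM were computed from these. The number of reads sets the precision of each value.

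The 22570 genes with a value over the lowest in 7 or more libraries were fitted with limma 3.58.1 (R 4.3.3, trended variance) on the deposited log2 values, all 6 groups together, with Benjamini-Hochberg adjustment. DEx genes had an adjusted p below 0.05 and a log2 fold change beyond 0.2. Alternatives were another filter, normalization, depth or residual factor covariates, voom on the recovered reads, only the groups compared, and each rat left out. Correlations used 100000 two-sided permutations of rats within groups.

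The members and lists were chosen with earlier results of these data known. Identifiers of the 6 genes came with their choice, and 1997 other genes were named from the readable part of a supplementary table. Besides the 6, genes are named from the lists or for the highest or lowest r. Promoter windows came from RefSeq (GRCr8). All 6 symbols matched. Fits of genes on Th, fits with Th as covariate and values on either side of the gap were chosen after seeing the data. The fits were tested on simulated data. Replicates are separate rats, and no pair of libraries in a group agreed within sampling noise (140 pairs). A result on 1 listed marker is not reported here.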

Additional observations from a re-analysis of the deposited data

Results flagged for a closer look

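Slc18a2 at equal Th had a heroin difference that was 0.98 higher with H3.3Q5A than with H3.3 WT (SE 0.25, interaction, adjusted p = 0.0102 by limma's test), where 8.4% of all genes were called. Over the 12 comparisons, 2 of 60 tests on the 5 genes were called beside 2.76% of the tests of all genes, so the share called is near the background. It is given here because the difference between the vectors was itself tested. The heroin differences behind it were 0.36 in H3.3Q5A and -0.61 in H3.3 WT rats, neither called alone (adjusted p = 0.280 and 0.0515). It was 0.23 in the 32 rats above the gap in Th (adjusted p = 0.562), a subset chosen by Th. The fit was chosen after the values had been seen. No saline H3.3Q5A rat lay below the gap, so at low Th that group is read only along the fitted slope. No single rat passed the gap test in any of 36 sets of 1 gene in 1 group, where chance would give about 1 in 20. The test takes only the lowest or the highest rat of a group. It can therefore miss 2 or 3 rats that are low together, as in each group with rats below the gap. The 36 sets are not separate tests, since the 5 dopamine neuron genes varied together.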

How the results depend on the processing

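None of the 6 genes was called in any of the 12 comparisons under the alternatives for filter, normalization, depth, groups or voom, nor with any rat left out. Calls arose only with residual factors, for Drd2: 1 call with 3 factors in heroin vs. saline H3.3Q5A rats and in H3.3Q5A vs. empty after heroin, and 1 call with 1 or 3 factors in the heroin-by-H3.3Q5A interaction against empty. Of the 72 differences under the other alternatives, 561 values kept their direction and side of the threshold, 4 became calls and 11 changed sign, none of the latter called; with single rats left out, 77 values changed sign, in 23 of the 72 differences. The cause was not tested.

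Median centring gave Adcy5 0.012 in heroin vs. saline empty, -0.0068 in H3.3Q5A vs. empty after heroin, -0.097 in the heroin-by-H3.3Q5A interaction against empty and -0.067 in that against H3.3 WT, and gave Slc18a2 0.048 in H3.3Q5A vs. H3.3 WT after saline. Quantile normalization gave Adcy5 0.013 in heroin vs. saline H3.3Q5A, 0.024 in H3.3Q5A vs. H3.3 WT after heroin and -0.0038 in H3.3Q5A vs. empty after saline. Voom gave Th 0.011 in H3.3Q5A vs. H3.3 WT after heroin. With read total as covariate Ddc was -0.0050 in that comparison and 0.00043 in H3.3 WT vs. empty after saline.

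The differences that changed sign with 1 rat left out had these lowest and highest values. In heroin vs. saline, empty, they ran from -0.036 to 0.62 for Ddc, -0.23 to 0.51 for Slc18a2 and -0.29 to 1.06 for Slc6a3. In heroin vs. saline, H3.3 WT, they ran from -1.22 to 0.23 for Slc6a3. In heroin vs. saline, H3.3Q5A, they ran from -0.053 to 0.0067 for Adcy5. In H3.3Q5A vs. H3.3 WT, heroin, they ran from -0.37 to 0.27 for Th, -0.21 to 0.34 for Ddc, -0.28 to 0.72 for Slc6a3 and -0.040 to 0.014 for Adcy5. In H3.3Q5A vs. empty, saline, they ran from -0.10 to 0.47 for Ddc and -0.15 to 0.48 for Slc18a2. In H3.3Q5A vs. H3.3 WT, saline, they ran from -0.082 to 1.02 for Th, -0.14 to 0.57 for Ddc, -0.37 to 0.25 for Slc18a2 and -0.16 to 0.35 for Drd2. In H3.3 WT vs. empty, saline, they ran from -0.41 to 0.71 for Th, -0.35 to 0.36 for Ddc, -0.14 to 0.61 for Slc18a2 and -0.99 to 0.63 for Slc6a3. In the heroin-by-H3.3Q5A interaction against empty, they ran from -0.0038 to 0.058 for Adcy5. In the heroin-by-H3.3Q5A interaction against H3.3 WT, they ran from -1.05 to 0.051 for Th and -0.48 to 0.23 for Ddc. In the heroin-by-H3.3 WT interaction against empty, they ran from -0.071 to 0.0056 for Adcy5.

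The lowest r among the 5 dopamine neuron genes was 0.90 to 0.95 under all alternatives fixed in the design. Genes that followed Th numbered 632 with 1 residual factor, 991 in the 32 rats above the gap, 0 in the 12 rats below it (limma, where 811 genes had an unadjusted p below 0.05) and 1296 (without saline H3.3 WT rat 44) to 3186 (without heroin H3.3 WT rat 11) with 1 rat left out. Calls of Slc18a2, Slc6a3, Drd2 and Adcy5 with Th as covariate (48 tests without Ddc, which serves as covariate in an alternative), 2 in all, numbered 5 with Ddc in place of Th, 4 with median centring, 8 with 1 residual factor, 0 in the 32 rats (limma, 1 test with an unadjusted p below 0.05), and 1 to 3 with 1 rat left out (1 without saline empty rat 42). Slc18a2 at equal Th in H3.3Q5A vs. H3.3 WT after heroin gave 0.14 in the 32 rats and 0.48 (without heroin H3.3 WT rat 11, adjusted p = 0.173) to 0.67 with 1 rat left out, and its interaction gave 0.23 in the 32 rats. The fewest reads behind any value of the 6 genes were 134, for Slc6a3.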

Other observations

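The library whose labels name both H3.3Q5A and H3.3 WT, from saline rat 48, was low in the 5 dopamine neuron genes. It held 19.97 RPM of Th, 19.5 RPM of Ddc, 20.9 RPM of Slc18a2, 13.8 RPM of Slc6a3 and 19.6 RPM of Drd2. Adcy5, at 175 RPM, was within the range of the other 44 rats.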
